A study of Mus musculus with 24 samples.

Results

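The 40 genes described here encode subunits of RNA polymerase I and nucleolar proteins that assemble ribosomes. They were taken from a list of gene symbols, by name and not by measured values, and all 40 were found among the 55487 genes of the count table. RNA-seq was done on Lineage-Sca1+KIT+ (LSK) cells, a population of mouse blood progenitors in which the stem cells are found. ME cells came from Tet-On-ME mice, in which the leukaemia fusion MLL::ENL (MLL is the gene Kmt2a, ENL the gene Mllt1) is inducible, and were set against cells from control mice. Sorted cells were grown in culture for 48 h, with MLL::ENL induced there. ME and control cells were taken at E16, P14 and 8wk, which gave 6 groups of 4 libraries. Liver was the source at E16 and bone marrow at P14 and 8wk, so age and tissue cannot be told apart at E16. The labels do not give the promoter that drives the transgene, the strain, the alleles of the control mice, or whether control cultures received the inducing agent.

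Ribosome production begins in the nucleolus, where RNA polymerase I transcribes the long precursor of the ribosomal RNAs. Small nucleolar ribonucleoproteins (snoRNPs) then modify and help to cleave this precursor, and large sets of assembly factors build the small and the large subunit on it before export. The pathway is a major cost of cell growth and is driven by Myc in many cell types.

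Total counts per library ranged from 33891949 to 69295621. All values below are CPM (counts scaled to a common total by edgeR's TMM factors), and errors of CPM are SD over 4 libraries. A gene was called changed where the quasi-likelihood test of edgeR, run over 18931 genes, gave a Benjamini-Hochberg adjusted p under 0.05. All 40 ribosome biogenesis genes passed the filter on low counts. The labels do not say that replicates were separate animals or cultures, so p-values measure the spread between these libraries, which may be technical. Mllt1, Kmt2a and Skida1, a gene known as a target of MLL fusions, were called higher in ME at each age, for example Skida1 at 13.5 ± 2.21 CPM in E16 ME and 0.646 ± 0.190 CPM in E16 control libraries. Kit was read at 376 to 1763 CPM over the 24 libraries, and Ly6a, which encodes Sca1, at 61.9 to 827 CPM. Both were called higher in ME at 8wk and at no other age. At 8wk Kit averaged 1463 ± 303 CPM in ME and 487 ± 90.6 CPM in control libraries, and Ly6a 292 ± 143 CPM and 140 ± 30.1 CPM. On the first principal component, replicate 4 of E16 ME, replicate 4 of 8wk ME and replicate 1 of 8wk control stood apart from their groups.

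The main result was a shared fall with MLL::ENL at all 3 ages. At E16, 38 of the 40 genes were called lower in ME and 1 higher, where 8.47% of all genes tested were called lower and 13.3% higher. The counts were 33 lower and 1 higher at P14, where 9.35% of all genes were lower and 12.7% higher. At 8wk they were 29 lower and 1 higher, where 14.3% of all genes were lower and 14.2% higher. The median log2 fold change of the 40 genes was -0.60 at E16, -0.55 at P14 and -0.52 at 8wk, against 0.02, 0.03 and -0.02 over all genes tested. At all 3 ages 27 of the 40 genes were called lower, as were 3.66% of all genes tested. With library size as the scale in place of TMM, 33, 30 and 28 of the 40 were called lower, the median of all genes rose to 0.11 log2 at E16 and P14, and the share of all calls that were higher was 74.6% at E16 and 70.5% at P14, against 61.1% and 57.5% with TMM. With a correction for GC content 37, 38 and 32 of the 40 were called lower.

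The gene called higher was Rrs1 at each age, and Noc2l was the other gene whose mean change over the ages was positive; both are described apart below. At E16 all 4 ME libraries lay below all 4 control libraries for 36 of the 40 genes, where 12.8% of all genes were separated this way. At P14 this held for 31 genes (12.4% of all genes) and at 8wk for 22 (9.04% of all genes). For 1 gene, Rrs1, each ME library exceeded each control library of its age, where 14.5% of all genes were separated this way at E16, 14.1% at P14 and 12% at 8wk. Summed over the 40 genes, the level was 5683 ± 415 CPM in E16 ME and 8654 ± 354 CPM in E16 control libraries. At P14 the sum was 5784 ± 158 CPM in ME and 8540 ± 856 CPM in control libraries, and at 8wk it was 5487 ± 255 CPM in ME and 8523 ± 1018 CPM in control libraries. The lowest control sum, 7002 CPM in replicate 1 of 8wk, was above the highest ME sum, 6137 CPM in replicate 3 of E16.

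**Figure D1:**
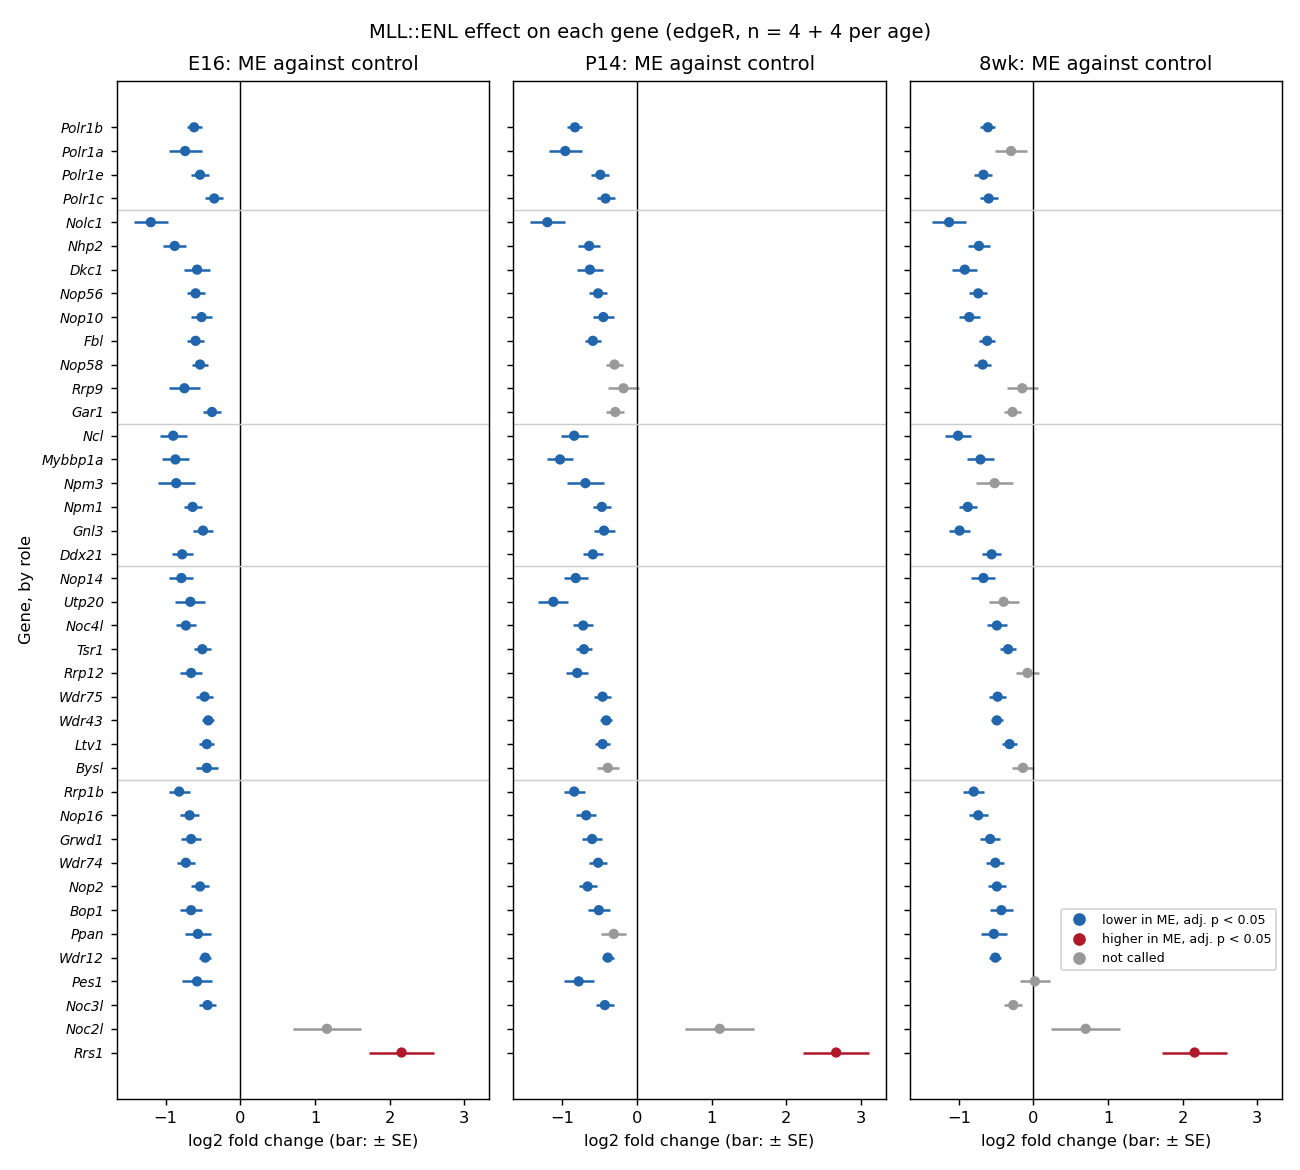
The log2 fold change of each of the 40 genes in ME against control is shown at E16, P14 and 8wk (horizontal axis). Bars give ± SE, derived from the F statistic of edgeR, with 4 libraries per group. Genes are grouped by role and sorted within it. Nearly every point lies left of 0, 38, 33 and 29 of them called lower, while Rrs1 stands at 2.16, 2.67 and 2.16.

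In bulk samples, fewer cells of a type and less RNA per cell cannot be told apart. Of 10 LSK progenitor markers, 4, 3 and 4 were called higher in ME at E16, P14 and 8wk, and 1 was called lower at each age. Markers of other cell types moved with the groups too. At E16, 6 of 7 megakaryocyte markers were called lower in ME, with a summed level of 43.7 to 73.7 CPM in ME and 190 to 503 CPM in control libraries. The 8 neutrophil markers, 1 of them called lower, summed to 41.6 to 1035 CPM in E16 ME and 1082 to 5656 CPM in E16 control libraries. At P14, 6 of 8 B lineage markers were called higher in ME (38.3 to 328 CPM in ME, 40 to 44.2 CPM in control libraries), and at 8wk 6 of 10 monocyte and macrophage markers (180 to 1176 CPM in ME, 175 to 894 CPM in control libraries), with C1qa and C1qb at 0 in the P14 control libraries. Of 7 mast cell and basophil markers 2 were called lower at each age, with sums at 8wk of 31.2 to 89.1 CPM in ME and 163 to 188 CPM in control libraries. The part of these cells in the fall of the ribosome biogenesis genes was not tested. The 3 libraries that stand apart were picked on the first principal component and not by these markers. Leaving them out does not test that part. Without them, 35, 34 and 30 of the 40 genes were called lower at E16, P14 and 8wk.

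The start regions of the 40 genes were read from the RefSeq table of mouse promoters (build GRCm38.p6), which held a window for 35 of them, from 250 bases before to 50 bases after the annotated start. Both strands were searched. The 35 genes had 39 windows in all, and a gene was counted where any of its windows held the letters. The same rule was used for all genes of the table. The letters CACGTG, the E-box that Myc binds with its partner Max, stood in the window of 8 of the 35 genes (22.9%), and in 8.09% of the 27025 genes of the table. CCGGAAG, the letters that ETS factors bind, stood in 13 (37.1%, against 9.93% of all genes), GGGCGG, the Sp1 box, in 27 (77.1%, against 38.2%), and TATAAA in 3 (8.57%, against 15.7%). AAGATGGC, a letter string that the factor YY1 binds, stood in 1 (2.86%, against 3.19%). The palindromes bound by ZBTB33 and NRF1 were found for 0 of the 35 genes (0.525% and 1.07% of all genes). These are matches of letters and not shown to be sites. The shares of all genes cover every gene of the promoter table, whether or not it was tested here. They were not matched to the 40 genes for expression or GC content. The 6 windows below, of the genes with CACGTG whose mean change was lowest, show where the E-box lies in genes that fell together; the capitals mark it and each line runs 5′ to 3′ on the gene's strand.
Mybbp1a (chr11:72441077-72441376, plus strand): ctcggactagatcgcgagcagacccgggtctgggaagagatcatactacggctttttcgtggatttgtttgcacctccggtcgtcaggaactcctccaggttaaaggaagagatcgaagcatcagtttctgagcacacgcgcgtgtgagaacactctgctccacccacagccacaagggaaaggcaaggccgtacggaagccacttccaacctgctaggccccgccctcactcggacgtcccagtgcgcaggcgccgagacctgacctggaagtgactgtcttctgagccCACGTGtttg
Utp20 (chr10:88826765-88827064, minus strand): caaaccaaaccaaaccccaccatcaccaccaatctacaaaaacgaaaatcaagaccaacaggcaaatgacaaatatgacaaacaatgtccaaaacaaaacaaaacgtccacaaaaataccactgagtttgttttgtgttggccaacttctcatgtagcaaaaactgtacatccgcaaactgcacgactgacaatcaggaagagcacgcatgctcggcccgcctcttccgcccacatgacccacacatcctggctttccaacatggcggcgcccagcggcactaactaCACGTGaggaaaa
Grwd1 (chr7:45830740-45831039, minus strand): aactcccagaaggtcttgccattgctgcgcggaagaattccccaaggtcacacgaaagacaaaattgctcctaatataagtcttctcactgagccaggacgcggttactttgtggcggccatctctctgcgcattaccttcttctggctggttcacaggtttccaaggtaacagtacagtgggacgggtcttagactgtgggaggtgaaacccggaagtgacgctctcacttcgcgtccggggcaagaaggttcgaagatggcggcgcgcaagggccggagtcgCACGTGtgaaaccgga
Nop2 (chr6:125131633-125131932, plus strand): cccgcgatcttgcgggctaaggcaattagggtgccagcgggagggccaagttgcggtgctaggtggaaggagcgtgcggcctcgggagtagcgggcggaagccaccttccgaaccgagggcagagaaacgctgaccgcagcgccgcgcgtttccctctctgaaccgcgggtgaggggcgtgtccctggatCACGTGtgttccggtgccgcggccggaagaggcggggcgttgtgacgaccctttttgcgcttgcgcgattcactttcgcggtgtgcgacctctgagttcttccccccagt
Tsr1 (chr11:74897830-74898129, plus strand): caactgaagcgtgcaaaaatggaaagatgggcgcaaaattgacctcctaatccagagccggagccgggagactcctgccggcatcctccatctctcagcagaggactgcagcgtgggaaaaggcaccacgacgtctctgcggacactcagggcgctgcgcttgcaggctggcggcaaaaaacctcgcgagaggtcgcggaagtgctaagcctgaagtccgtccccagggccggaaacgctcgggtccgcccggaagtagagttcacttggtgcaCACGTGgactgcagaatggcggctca
Pes1 (chr11:3963725-3964024, plus strand): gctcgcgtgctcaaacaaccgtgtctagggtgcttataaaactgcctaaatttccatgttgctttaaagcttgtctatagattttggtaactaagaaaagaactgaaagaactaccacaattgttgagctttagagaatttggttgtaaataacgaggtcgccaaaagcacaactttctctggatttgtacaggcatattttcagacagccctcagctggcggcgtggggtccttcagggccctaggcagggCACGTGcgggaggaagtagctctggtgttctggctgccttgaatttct

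The E-box of Mybbp1a began 40 bases downstream of the annotated first base of the transcript, that of Utp20 37, that of Grwd1 34, that of Tsr1 24 and that of Pes1 2 bases downstream, while that of Nop2 began 60 bases upstream. Ltv1 and Wdr43 were the other genes with this string. All 8 were called lower in ME at E16 and P14. At 8wk 6 of the 8 were called lower, and Utp20 and Pes1 were not. Of all 40 genes 38, 33 and 29 were called lower at E16, P14 and 8wk, so these counts do not set the 8 apart.

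RNA polymerase I makes the ribosomal RNA precursor. Its 4 listed subunits were all called lower in ME at E16 and P14, and 3 of them at 8wk. Polr1b (ENSMUSG00000027395, chromosome 2, 129100995 to 129126594, plus strand of GRCm38), which forms the catalytic core together with Polr1a, fell most on average over the ages. Polr1b had 145, 154, 169 and 144 CPM in the 4 E16 ME libraries, against 228, 258, 234 and 222 CPM in the E16 control libraries. It had 179, 161, 167 and 136 CPM in P14 ME and 260, 269, 294 and 319 CPM in P14 control libraries. The 8wk values were 117, 106, 116 and 126 CPM in ME and 165, 186, 156 and 204 CPM in control libraries. At every age all ME libraries lay below all control libraries, and both groups were lowest at 8wk. The log2 fold changes were -0.62 ± 0.10 (SE; edgeR adjusted p = 0.000102) at E16, -0.83 ± 0.10 (adjusted p = 4.13e-06) at P14 and -0.61 ± 0.10 (adjusted p = 0.00012) at 8wk.

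Polr1c, a subunit shared with RNA polymerase III, had the smallest mean fall of the subunits over the 3 ages. Polr1c had 91.2, 78.5, 82.5 and 84.1 CPM in E16 ME and 98.2, 105, 112 and 112 CPM in E16 control libraries. Its values were 80.1, 74.8, 76.9 and 80.9 CPM in P14 ME and 98.5, 105, 98.8 and 115 CPM in P14 control libraries, and 85.5, 79.2, 73.2 and 74.5 CPM in 8wk ME and 84.6, 112, 149 and 126 CPM in 8wk control libraries. The groups did not overlap at E16 and P14, and at 8wk the highest ME library lay above the lowest control library, replicate 1. The log2 fold changes of Polr1c were -0.35 ± 0.12, -0.42 ± 0.12 and -0.60 ± 0.12 (edgeR adjusted p = 0.0349, 0.0121 and 0.000706). Polr1c lost its E16 call without E16 ME replicate 2 or 3 or 4 or E16 control replicate 2 or 3 or 4 (edgeR adjusted p = 0.0603 to 0.0941). The call was also lost with library size as the scale (adjusted p = 0.0727), with no filter on low counts (0.0719) and with a GC correction (0.0815). Polr1a, the largest subunit, was called lower at E16 (-0.74 ± 0.22) and P14 (-0.96 ± 0.22). Polr1a lost its E16 call without E16 ME replicate 1 or 2 or E16 control replicate 2 (edgeR adjusted p = 0.0514 to 0.0608). At 8wk Polr1a had 67.1, 74.2, 90.2 and 94.9 CPM in ME and 104, 112, 71.5 and 115 CPM in control libraries, where control replicate 3 lay among the ME libraries, and the change of -0.30 ± 0.21 was not called (edgeR adjusted p = 0.312). Polr1e changed by -0.54 ± 0.12, -0.49 ± 0.12 and -0.67 ± 0.12 and was called lower at each age.

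The snoRNPs come in a box C/D class, whose Fbl methylates ribosomal RNA, and an H/ACA class, whose Dkc1 converts uridine to pseudouridine. Of 9 listed snoRNP genes, 9 were called lower in ME at E16, 6 at P14 and 7 at 8wk, with median log2 fold changes of -0.60, -0.52 and -0.73. Nolc1 (ENSMUSG00000015176, chromosome 19, 46075863 to 46085530, plus strand), a chaperone that binds both classes on their way to the nucleolus, had the largest mean fall of all 40 genes. It had 52.1, 58.5, 91.2 and 55.9 CPM in E16 ME and 165, 164, 137 and 128 CPM in E16 control libraries. Nolc1 values at P14 were 65.6, 69.3, 84.4 and 71.7 CPM in ME and 123, 112, 232 and 202 CPM in control libraries. The 8wk libraries had 62.6, 68.8, 98.7 and 102 CPM in ME and 130, 208, 163 and 229 CPM in control. No ME library reached the lowest control library of its age, although P14 controls 3 and 4 stood far above controls 1 and 2. The log2 fold changes were -1.20 ± 0.23, -1.20 ± 0.23 and -1.13 ± 0.23 (edgeR adjusted p = 0.000846, 0.000755 and 0.00113), that is, 0.434, 0.435 and 0.456 times the control level.

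Of the box C/D core proteins, Fbl averaged 305 ± 25.6 CPM in E16 ME and 461 ± 23.4 CPM in E16 control libraries, and changed by -0.60 ± 0.11, -0.59 ± 0.11 and -0.62 ± 0.11 log2. Nop56, which holds Fbl on the guide RNA, changed by -0.60 ± 0.12, -0.52 ± 0.12 and -0.74 ± 0.12. Its partner Nop58 was called lower at E16 (-0.54 ± 0.11) and 8wk (-0.68 ± 0.11). At P14 Nop58 had 154, 163, 194 and 219 CPM in ME and 205, 227, 223 and 245 CPM in control libraries, so that 1 ME library lay among the controls, and the change of -0.30 ± 0.11 missed the threshold (edgeR adjusted p = 0.0502) but passed it with the replicate number as a block among P14 libraries (adjusted p = 0.0451). It also passed with RLE size factors, the block over all libraries, the Y-linked covariate, the GC correction, limma-voom, DESeq2 and with the 3 libraries that stand apart left out, at adjusted p of 0.00662 to 0.0442. Without P14 ME replicate 4 or P14 control replicate 1, Nop58 was called at P14 (edgeR adjusted p = 0.0131 to 0.0203). Rrp9, a protein of the snoRNP that guides the first cleavages of the precursor, was called lower in ME at E16 (-0.75 ± 0.21, adjusted p = 0.0128). Rrp9 had 79.6, 68.2, 54.5 and 52.3 CPM in P14 ME and 74.9, 75.6, 89.5 and 48.7 CPM in P14 control libraries, and 83.3, 64.6, 51.4 and 35.3 CPM in 8wk ME and 52.6, 70.5, 60.7 and 75.9 CPM in 8wk control libraries. The groups overlapped widely at both ages, with changes of -0.18 ± 0.21 and -0.15 ± 0.21 that were not called (edgeR adjusted p = 0.587 and 0.646). With the GC correction both passed the threshold, at -0.47 for P14 (adjusted p = 0.0426) and -0.45 for 8wk (0.0444). Rrp9 lost its E16 call without E16 ME replicate 4 (edgeR adjusted p = 0.0536).

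The H/ACA proteins Nhp2, Nop10 and Dkc1 were called lower at each age. Nhp2 changed by -0.88 ± 0.15, -0.64 ± 0.15 and -0.73 ± 0.15, Nop10 by -0.52 ± 0.14, -0.45 ± 0.14 and -0.86 ± 0.14, and Dkc1 by -0.58 ± 0.17, -0.63 ± 0.17 and -0.92 ± 0.17 log2. Nop10 lost its P14 call without P14 ME replicate 1 or 2 or P14 control replicate 2 or 4 (edgeR adjusted p = 0.0553 to 0.076). Dkc1 lost its E16 call without E16 ME replicate 1 (edgeR adjusted p = 0.0505). Gar1, the remaining H/ACA protein, had the smallest mean fall of the 9. It had 102, 89.9, 96.7 and 90.6 CPM in E16 ME and 139, 130, 119 and 105 CPM in E16 control libraries, which did not overlap. At P14 the values were 99.4, 89.6, 98.6 and 101 CPM in ME and 124, 114, 140 and 96.7 CPM in control libraries, and at 8wk 90.1, 84.1, 85.2 and 74.3 CPM in ME and 108, 110, 78.7 and 108 CPM in control libraries. At both later ages 1 control library lay within the ME range. Gar1 was called lower at E16 (-0.38 ± 0.12, edgeR adjusted p = 0.0217) and not at P14 (-0.29 ± 0.12, adjusted p = 0.075) or 8wk (-0.28 ± 0.12, adjusted p = 0.0769). Gar1 lost its E16 call without E16 ME replicate 2 or 4 or E16 control replicate 1 or 2 (edgeR adjusted p = 0.0605 to 0.0784). Library size scaling ended it too (adjusted p = 0.0939). Without P14 control replicate 4, Gar1 was called at P14 (edgeR adjusted p = 0.0307). Without 8wk control replicate 3, Gar1 was called at 8wk (edgeR adjusted p = 0.0378). The GC correction gave a call at both ages too, with -0.29 at P14 (adjusted p = 0.0484) and -0.35 at 8wk (0.0156).

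Among 6 nucleolar chaperones and regulators, 6 were called lower in ME at E16, 6 at P14 and 5 at 8wk, with medians of -0.82, -0.64 and -0.79 log2. Ncl (ENSMUSG00000026234, chromosome 1, 86344719 to 86359400, minus strand) encodes nucleolin, an abundant nucleolar protein that binds ribosomal RNA and ribosomal DNA. Ncl had 395, 448, 541 and 412 CPM in E16 ME and 943, 886, 749 and 779 CPM in E16 control libraries. The values at P14 were 392, 445, 564 and 541 CPM in ME and 671, 701, 1092 and 1011 CPM in control libraries. At 8wk they were 399, 389, 566 and 525 CPM in ME and 774, 1117, 759 and 1120 CPM in control libraries. No ME library of any age reached the lowest control library. Ncl changed by -0.90 ± 0.18, -0.84 ± 0.18 and -1.01 ± 0.18 log2 (edgeR adjusted p = 0.000927, 0.00154 and 0.000292).

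Npm1, nucleophosmin, is a chaperone of ribosome export and the gene with the highest level per kilobase of exon in all 6 groups, at 306 CPM per kb in E16 ME and 477 CPM per kb in E16 control libraries. Npm1 changed by -0.64 ± 0.12, -0.47 ± 0.12 and -0.88 ± 0.12 log2, without overlap of the groups at any age. It has processed pseudogene copies in the mouse genome, and how reads with several matches were counted is not given in the sources used here. Mybbp1a, a regulator of ribosomal DNA transcription and of precursor processing, changed by -0.87 ± 0.18, -1.03 ± 0.18 and -0.71 ± 0.18. Gnl3, nucleostemin, a nucleolar GTPase of stem and dividing cells, changed by -0.50 ± 0.14, -0.44 ± 0.14 and -0.99 ± 0.14. Both genes were called lower at each age. Gnl3 lost its E16 call without E16 control replicate 4 (edgeR adjusted p = 0.0542). Gnl3 lost its P14 call without P14 ME replicate 1 or 2 or P14 control replicate 2 or 4 (edgeR adjusted p = 0.0729 to 0.0945).

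Ddx21, an RNA helicase of the nucleolus, had the smallest mean fall of these 6 genes. Ddx21 had 62.6, 69.4, 79.9 and 60.2 CPM in E16 ME and 128, 124, 103 and 112 CPM in E16 control libraries. Ddx21 values were 73.3, 78.2, 92.2 and 78.1 CPM in P14 ME and 104, 106, 138 and 136 CPM in P14 control libraries, and 68.7, 66.6, 85.1 and 89.5 CPM in 8wk ME and 102, 130, 95.1 and 131 CPM in 8wk control libraries. The groups were separate at all ages, and the changes were -0.78 ± 0.14, -0.59 ± 0.13 and -0.56 ± 0.13 log2 (edgeR adjusted p = 0.000283, 0.00303 and 0.0037). Npm3, a relative of Npm1, was called lower at E16 (-0.86 ± 0.25) and P14 (-0.69 ± 0.25, adjusted p = 0.0494). The P14 call was lost with the replicate block among P14 libraries (adjusted p = 0.0551) and with only the P14 groups fitted (0.169). Npm3 lost its P14 call without P14 ME replicate 3 or 4 or P14 control replicate 2 or 3 or 4 (edgeR adjusted p = 0.0609 to 0.155). Npm3 lost its E16 call without E16 ME replicate 4 (edgeR adjusted p = 0.0533). At 8wk Npm3 had 37.3, 41.5, 22.6 and 31.9 CPM in ME and 48.4, 47.2, 53.2 and 41.7 CPM in control libraries, with the highest ME library just below the lowest control library, and its change of -0.52 ± 0.25 was not called (edgeR adjusted p = 0.125). It was -0.88 and called with the GC correction (adjusted p = 0.0033).

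**Figure D2:**
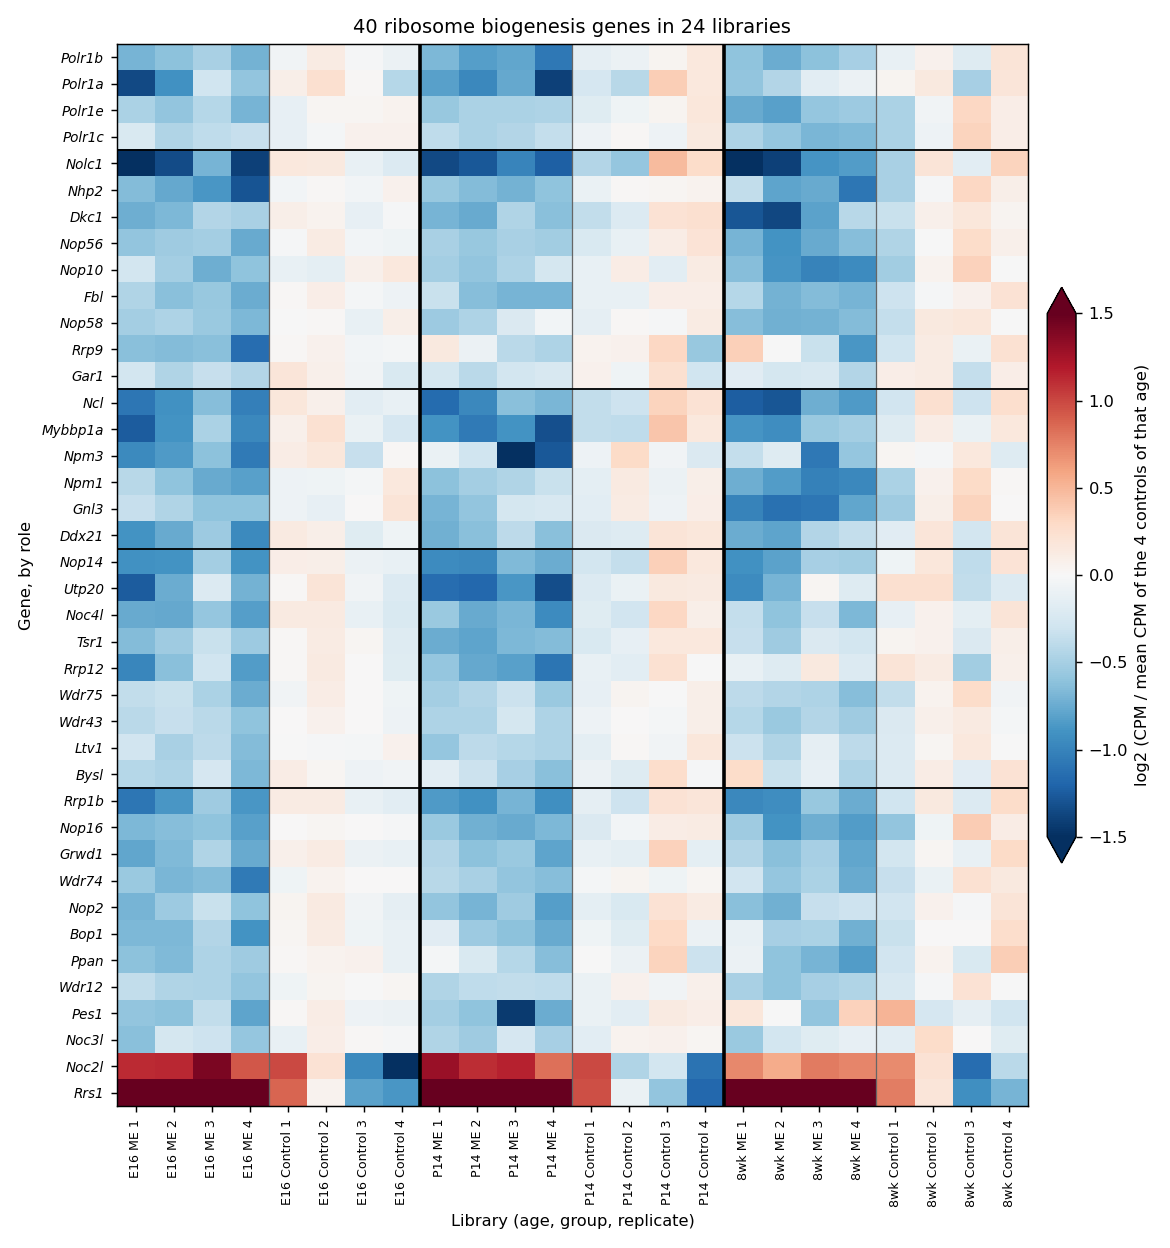
Each cell gives the log2 ratio of a gene's CPM in 1 library to the mean CPM of the 4 controls of the same age, for 40 genes by role (rows) and 24 libraries (columns), with ME left of control at each age. The ME blocks are blue in nearly every row, the pale control blocks vary around 0, and Noc2l and Rrs1 at the foot are red in ME libraries and in replicate 1 of each control group.

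The small subunit is built in the small subunit processome, a large particle that forms on the nascent precursor. Of 9 listed genes for it, 9 were called lower in ME at E16, 8 at P14 and 6 at 8wk, with medians of -0.51, -0.71 and -0.40 log2. Nop14 (ENSMUSG00000036693, chromosome 5, 34638536 to 34660148, minus strand), a core protein of the processome, had the largest mean fall. It had 27.5, 27.6, 36.2 and 27.7 CPM in E16 ME and 55, 54.7, 48.3 and 47.8 CPM in E16 control libraries. P14 ME libraries had 28.5, 28, 34.7 and 32.8 CPM of Nop14, against 45.2, 42.7, 70.4 and 61 CPM in P14 control libraries. For 8wk the values were 27.4, 29.4, 36.4 and 35.6 CPM in ME and 49.2, 57.6, 39.4 and 58.9 CPM in control libraries. Every ME library lay below every control library of its age. Nop14 changed by -0.79 ± 0.16, -0.82 ± 0.16 and -0.67 ± 0.16 log2 (edgeR adjusted p = 0.000999, 0.000625 and 0.00312). The annotation places an antisense gene over 5.27% of its exon bases.

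Wdr43 and Wdr75, both WD-repeat proteins of the processome that also aid RNA polymerase I transcription, were called lower at each age, with changes of -0.43 ± 0.08, -0.41 ± 0.08 and -0.49 ± 0.08 for Wdr43 and -0.48 ± 0.11, -0.46 ± 0.11 and -0.48 ± 0.11 for Wdr75. Noc4l, whose yeast counterpart acts as a partner of Nop14, changed by -0.73 ± 0.13, -0.72 ± 0.13 and -0.49 ± 0.13. Tsr1 and Ltv1, late factors of the small subunit, were called lower at each age as well, with 8wk changes of -0.34 ± 0.11 for Tsr1 and -0.32 ± 0.10 for Ltv1. The 8wk call of Tsr1 was lost when only the 8wk groups were fitted (adjusted p = 0.132), and that of Ltv1 too (adjusted p = 0.118). Tsr1 lost its 8wk call without 8wk ME replicate 2 or 8wk control replicate 2 or 4 (edgeR adjusted p = 0.0583 to 0.084). Ltv1 lost its 8wk call without 8wk ME replicate 2 or 8wk control replicate 3 (edgeR adjusted p = 0.057 to 0.125). Exons of Srr on the other strand cover 32.3% of the exon bases of Tsr1, and the strand setting of the counts is not given in the sources used here.

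Bysl, an assembly factor of the small subunit, had the smallest mean fall of the 9. Bysl had 74.8, 73.2, 84.6 and 63.4 CPM in E16 ME and 109, 103, 95.8 and 97 CPM in E16 control libraries, which did not overlap. Its P14 values were 74.3, 66.1, 58.7 and 53.5 CPM in ME and 78.3, 72.4, 99.3 and 81.6 CPM in control libraries, and its 8wk values 75.1, 49.4, 57 and 45.2 CPM in ME and 54, 67.5, 55.3 and 72.6 CPM in control libraries. The groups overlapped by a single P14 library and widely at 8wk. The change was called at E16 (-0.45 ± 0.15, edgeR adjusted p = 0.0289) and not at P14 (-0.39 ± 0.15, adjusted p = 0.0556) or 8wk (-0.14 ± 0.15, adjusted p = 0.521). Bysl lost its E16 call without E16 ME replicate 1 or 2 or 4 or E16 control replicate 1 or 2 (edgeR adjusted p = 0.0511 to 0.101). Without P14 ME replicate 1 or P14 control replicate 1 or 2, Bysl was called at P14 (edgeR adjusted p = 0.03 to 0.0465). The P14 change also passed with RLE size factors, the GC correction, limma-voom, DESeq2 and with the 3 libraries that stand apart left out, at adjusted p of 0.025 to 0.0481.

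Utp20 and Rrp12 are large scaffold-like proteins, and Rrp12 also aids export of subunits. Both were called lower at E16 and P14, Utp20 with changes of -0.67 ± 0.20 and -1.12 ± 0.20 and Rrp12 with -0.66 ± 0.15 and -0.80 ± 0.15. At 8wk Utp20 had 46, 54.5, 89.9 and 77.3 CPM in ME and 104, 104, 68.4 and 76.8 CPM in control libraries, a change of -0.40 ± 0.20 that was not called (edgeR adjusted p = 0.148). Rrp12 had 96.5, 91, 115 and 90.4 CPM in 8wk ME and 119, 113, 72.6 and 110 CPM in 8wk control libraries, a change of -0.08 ± 0.15 (edgeR adjusted p = 0.749). The groups overlapped for both genes, and for Rrp12 the lowest library of all was a control. Utp20 lost its E16 call without E16 ME replicate 1 or 2 or 4 or E16 control replicate 2 (edgeR adjusted p = 0.0508 to 0.0721). Without 8wk ME replicate 3, Utp20 was called at 8wk (edgeR adjusted p = 0.05).

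Large subunit assembly had 12 listed genes. In ME 10 of them were called lower at E16, 9 at P14 and 8 at 8wk, and 1, Rrs1, was called higher at each age. Rrp1b (ENSMUSG00000058392, chromosome 17, 32036100 to 32062865, plus strand), a nucleolar protein of early large subunit processing, fell most. Rrp1b had 55.8, 64.4, 81.5 and 64.5 CPM in E16 ME and 128, 129, 109 and 106 CPM in E16 control libraries. At P14 it had 72.8, 70, 81.1 and 69 CPM in ME and 119, 106, 152 and 149 CPM in control libraries. The 8wk libraries held 49, 50.2, 64.6 and 57.5 CPM in ME and 78.2, 106, 83.4 and 116 CPM in control. The groups were separate at all 3 ages. Rrp1b changed by -0.82 ± 0.14, -0.84 ± 0.14 and -0.80 ± 0.14 log2 (edgeR adjusted p = 0.000284, 0.000192 and 0.000343).

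Pes1, Bop1 and Wdr12 form the PeBoW complex, which is needed to mature the RNA of the large subunit. Wdr12 changed by -0.47 ± 0.08, -0.39 ± 0.08 and -0.51 ± 0.08 log2 and Bop1 by -0.66 ± 0.15, -0.51 ± 0.15 and -0.43 ± 0.15, each called lower at the 3 ages. Bop1 lost its 8wk call without 8wk ME replicate 2 or 3 or 4 or 8wk control replicate 2 or 3 or 4 (edgeR adjusted p = 0.0571 to 0.123). Bop1 lost its P14 call without P14 ME replicate 4 or P14 control replicate 3 (edgeR adjusted p = 0.0584 to 0.0766). Pes1 was called lower at E16 (-0.58 ± 0.20, adjusted p = 0.0371) and P14 (-0.78 ± 0.20, adjusted p = 0.00619). At 8wk Pes1 had 105, 93.1, 61.8 and 119 CPM in ME and 133, 78.7, 85.4 and 76.1 CPM in control libraries. Its highest 8wk library was control replicate 1, the library that stands apart, and the other 3 controls lay within the ME range. The change was 0.02 ± 0.20 (edgeR adjusted p = 0.954), and -0.11 to 0.24 with 1 of the 8 libraries left out in turn. Pes1 lost its E16 call without E16 ME replicate 1 or 2 or 4 or E16 control replicate 1 or 2 or 3 or 4 (edgeR adjusted p = 0.0572 to 0.111).

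The remaining large subunit genes were called lower at 2 or 3 of the ages. Nop2, which methylates large subunit RNA, changed by -0.54 ± 0.12, -0.66 ± 0.12 and -0.49 ± 0.12, and Nop16 by -0.68 ± 0.13, -0.68 ± 0.13 and -0.74 ± 0.13. Grwd1, a WD-repeat protein and histone chaperone, changed by -0.66 ± 0.13, -0.60 ± 0.13 and -0.58 ± 0.13, and Wdr74 by -0.73 ± 0.12, -0.52 ± 0.12 and -0.51 ± 0.12. These 4 genes were called lower at each age. Wdr74 lost its 8wk call when only the 8wk groups were fitted (edgeR adjusted p = 0.0509). Ppan was called lower at E16 (-0.57 ± 0.17) and 8wk (-0.53 ± 0.17). It had 92.2, 80, 70.2 and 60.2 CPM in P14 ME and 93.9, 88.4, 119 and 75.3 CPM in P14 control libraries, which overlapped, with a change of -0.31 ± 0.17 (edgeR adjusted p = 0.186). With the GC correction the P14 change was -0.68 and called (adjusted p = 0.0002). Ppan lost its 8wk call without 8wk ME replicate 2 or 3 or 4 or 8wk control replicate 4 (edgeR adjusted p = 0.0551 to 0.106). Noc3l, whose yeast counterpart pairs with that of Noc2l, was called lower at E16 (-0.44 ± 0.12) and P14 (-0.43 ± 0.12). Both calls were lost with library size as the scale (edgeR adjusted p = 0.0536 and 0.0539). Noc3l had 27.9, 33.8, 36.2 and 37.6 CPM in 8wk ME and 36.6, 49.7, 41.1 and 36.1 CPM in 8wk control libraries, a change of -0.27 ± 0.12 in overlapping groups (edgeR adjusted p = 0.0966). Without the 3 libraries that stand apart it was -0.38 and called (adjusted p = 0.0353).

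**Figure D3:**
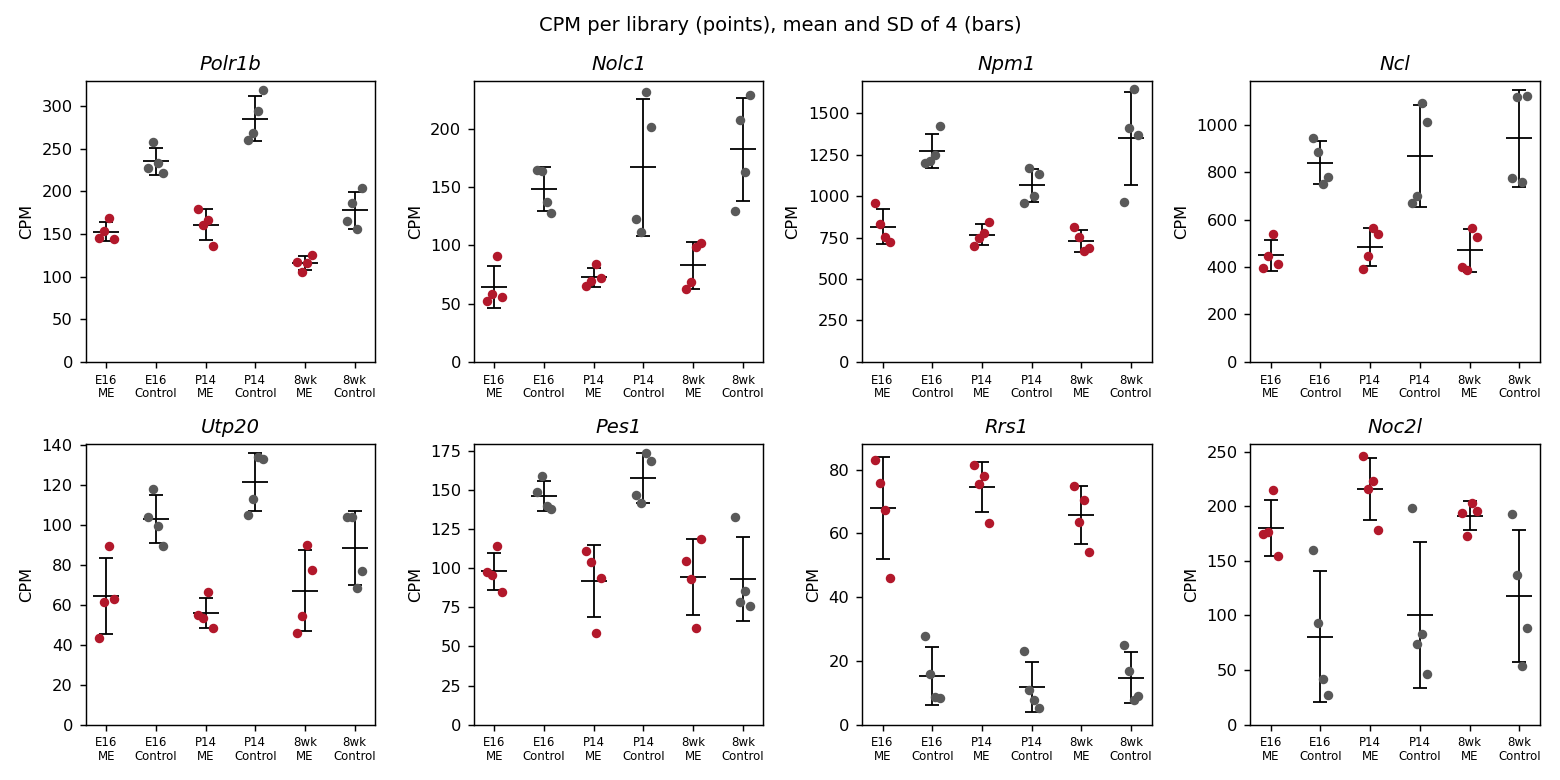
Points give the CPM of 8 genes in each library (vertical axis from 0), ME in red left of control in grey at each age, with bars for the mean and SD of 4 libraries. Polr1b, Nolc1, Npm1 and Ncl are lower in all ME libraries, Utp20 and Pes1 overlap at 8wk, and Rrs1 and Noc2l run the other way with a wide spread among controls.

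Rrs1 and Noc2l went against the rest. Rrs1 (ENSMUSG00000061024, chromosome 1, 9545408 to 9547455, plus strand), whose yeast counterpart helps to place a small ribonucleoprotein on the large subunit precursor, was the member with the lowest control level per kilobase at each age, at 33.2 CPM per kb in E16 ME and 7.4 CPM per kb in E16 control libraries. Rrs1 had 83.1, 75.8, 67.3 and 46 CPM in E16 ME and 27.8, 15.8, 8.72 and 8.28 CPM in E16 control libraries. It had 81.6, 75.5, 77.9 and 63.3 CPM in P14 ME and 23.1, 11, 7.83 and 5.2 CPM in P14 control libraries. The 8wk values of Rrs1 were 75, 63.6, 70.4 and 54.1 CPM in ME and 25.1, 16.7, 7.79 and 9.08 CPM in control libraries. The ME libraries were above the control libraries throughout, while the control libraries differed severalfold among themselves and replicate 1 was the highest control at every age. Rrs1 changed by 2.16 ± 0.44 (edgeR adjusted p = 0.00131), 2.67 ± 0.44 (adjusted p = 0.000201) and 2.16 ± 0.44 (adjusted p = 0.00109) log2, that is, 4.48, 6.34 and 4.48 times the control level. The call held under all alternatives run, 19 at E16 and 8wk and 20 at P14.

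Noc2l (ENSMUSG00000095567, chromosome 4, 156236010 to 156247616, plus strand) acts in large subunit assembly and is also known as an inhibitor of histone acetyltransferases. Noc2l had 175, 176, 215 and 154 CPM in E16 ME and 160, 93.3, 41.4 and 27.2 CPM in E16 control libraries. P14 values were 246, 216, 223 and 178 CPM in ME and 198, 73.4, 82.8 and 46.4 CPM in control libraries. In 8wk libraries there were 194, 173, 203 and 196 CPM in ME and 193, 137, 53.3 and 88.8 CPM in control. Replicate 1 was again the highest control and overlapped the ME range at each age. The changes of 1.16 ± 0.46, 1.11 ± 0.46 and 0.70 ± 0.46 log2 were not called (edgeR adjusted p = 0.0797, 0.0939 and 0.273). At P14, with the replicate number as a block among P14 libraries, the change was 1.32 (adjusted p = 0.0175). With the block over all libraries it was called higher at E16 (1.41, adjusted p = 0.00905) and P14 (1.28, adjusted p = 0.015). It was likewise called at both ages by limma-voom (1.45 and 1.33, adjusted p = 0.0296 and 0.0293) and DESeq2 (1.16 and 1.10, adjusted p = 0.0299 and 0.0398). Without replicate 1 of the controls, the changes at E16 and P14 were 1.74 (adjusted p = 0.0122) and 1.62 (adjusted p = 0.0148). Exons of Samd11 on the other strand cover 20.9% of the exon bases of Noc2l.

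The genes most like both in pattern were looked for after their values were seen. Over the 24 libraries, 211 of the other 18930 genes tested had a log2 CPM that correlated with that of Rrs1 at Pearson r of at least 0.95, a description that includes the difference between ME and control. The closest were Hnrnpab, Stard7, Efhd2, Grb2 and Tmem189, each at r = 0.99 over 24 libraries and at 0.97 to 0.98 over the 12 controls. Grb2 averaged 216 CPM in E16 ME and 38.3 CPM in E16 control libraries. For Noc2l 51 genes passed this mark, led by Afg3l2, Rnf10, Casc3, Plbd2 and Srrd. The genes most like Ncl were other nucleolar genes, Nop14, Nolc1 and Ddx21 of the 40 and Pum3 and Lyar, at r = 0.96 to 0.97. The libraries share groups and scaling, and no p is given.

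**Figure D4:**
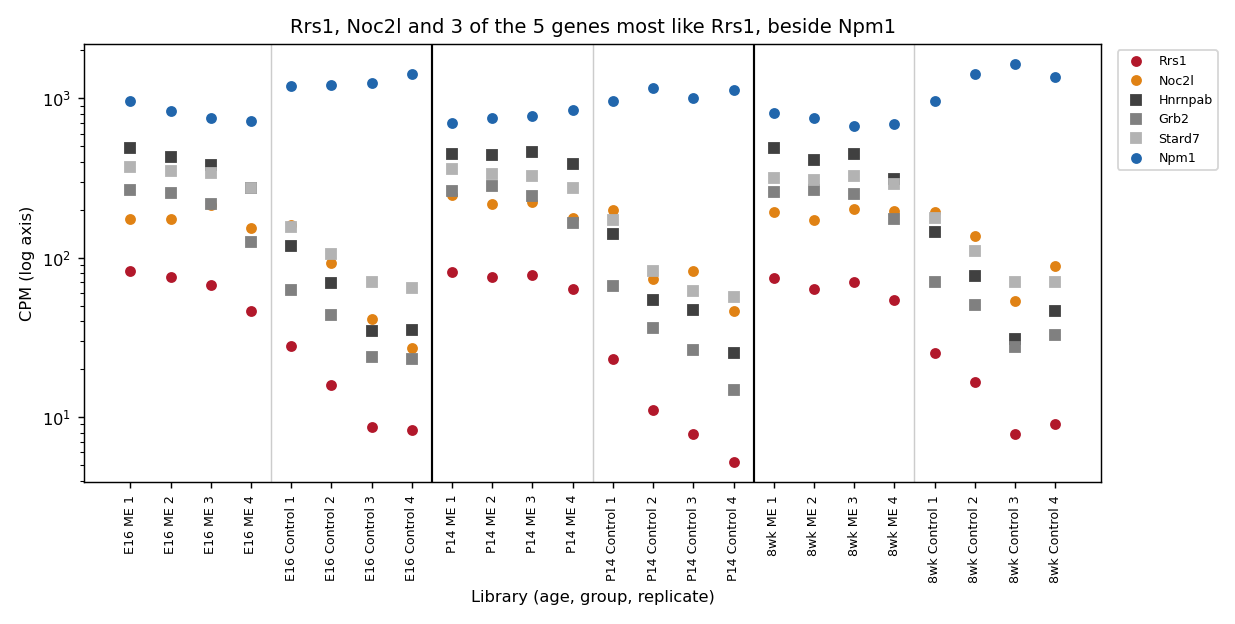
CPM on a log axis of Rrs1, Noc2l, 3 of the 5 genes most like Rrs1 (Hnrnpab, Grb2 and Stard7) and, for contrast, Npm1 in each of the 24 libraries, with ME left of control at each age. Rrs1 and these 3 genes are high in all ME libraries and lower in controls, where replicate 1 is the highest of each age, while Npm1 runs at 667 to 956 CPM in ME and 960 to 1645 CPM in control libraries.

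Whether the fall differed between ages was asked with the difference of the ME effects. None of the 40 genes was called in any of the 3 differences, where 0.0211% of all genes were called for P14 minus E16, 0.85% for 8wk minus E16 and 0.301% for 8wk minus P14. At an unadjusted p under 0.05 the edgeR counts were 0, 3 and 9 of the 40, and limma-voom and DESeq2 called 0 at the adjusted threshold. In 8wk minus P14, the largest positive differences were those of Pes1, 0.80 ± 0.28 log2 (95% interval 0.26 to 1.34), Utp20, 0.73 ± 0.29 (0.17 to 1.29), Rrp12, 0.72 ± 0.22 (0.30 to 1.15), and Polr1a, 0.66 ± 0.30 (0.07 to 1.26). In the other direction, the difference was -0.55 ± 0.20 (-0.94 to -0.16) for Gnl3, -0.50 ± 0.59 (-1.66 to 0.66) for Rrs1 and -0.41 ± 0.17 (-0.75 to -0.07) for Npm1. These 7 were not called, with edgeR adjusted p of 0.178 for Rrp12 to 0.778 for Rrs1. Without the 3 libraries that stand apart, Gnl3 was called lower in 8wk minus E16 (-0.75, edgeR adjusted p = 0.0118), and in 8wk minus P14 Gnl3, Npm1 and Nop58 were called lower and Rrp12 and Pes1 higher. Without 8wk control replicate 1 alone, Gnl3 was called lower in both (-0.63 and -0.69, adjusted p = 0.0347 each) and Pes1 higher in 8wk minus P14 (1.02, adjusted p = 0.039).

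Between control ages, fewer of the 40 genes were called than between ME and control at any age. In both comparisons of 8wk controls, the share called lower was above that of all genes, though most of these calls were lost in some alternative. In P14 against E16 controls 1 of 40 was called lower and 0 higher, where 7.51% of all genes were lower and 7.61% higher. At an unadjusted p under 0.05 the edgeR count was 3, and 2 genes were called higher by DESeq2 and 1 by limma-voom. The gene called lower was Rrp9, with 74.9, 75.6, 89.5 and 48.7 CPM in P14 controls and 119, 123, 115 and 116 CPM in E16 controls, which did not overlap. In all, 5 of the 40 genes had all P14 controls under all E16 controls (12.6% of all genes) and 2 had them above (11.9%). Rrp9 changed by -0.71 ± 0.21 log2 (edgeR adjusted p = 0.0226). Rrp9 lost this call without E16 control replicate 2 or P14 control replicate 4 (edgeR adjusted p = 0.0519 to 0.0911).

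In 8wk against P14 controls 6 of 40 were called lower and 0 higher, where 5.58% of all genes were lower and 7.01% higher. Polr1b had 165, 186, 156 and 204 CPM in 8wk controls and 260, 269, 294 and 319 CPM in P14 controls, without overlap, a change of -0.69 ± 0.10 log2 (edgeR adjusted p = 0.000221). Pes1 had 133, 78.7, 85.4 and 76.1 CPM in 8wk controls and 147, 142, 174 and 169 CPM in P14 controls, a change of -0.76 ± 0.20 (edgeR adjusted p = 0.0156). These groups were separate too. Rrp12 changed by -0.52 ± 0.15, Noc4l by -0.49 ± 0.13, Rrp1b by -0.45 ± 0.14 and Tsr1 by -0.33 ± 0.11. Rrp12 had 119, 113, 72.6 and 110 CPM in 8wk controls and 138, 133, 175 and 148 CPM in P14 controls. Noc4l had 108, 123, 107 and 135 CPM in 8wk controls and 146, 136, 206 and 176 CPM in P14 controls. Tsr1 had 61.9, 62.7, 51.5 and 64 CPM in 8wk controls and 64.5, 69.4, 84.5 and 84.4 CPM in P14 controls. All 8wk controls lay below all P14 controls for 6 of the 40 genes (8.22% of all genes) and above them for 0 (7.88% of all genes). Of the 6, Polr1b alone was called under every alternative run. Pes1 lost this call without P14 control replicate 3 or 8wk control replicate 2 or 3 (edgeR adjusted p = 0.0534 to 0.058). Rrp12 lost this call without P14 control replicate 3 or 4 or 8wk control replicate 3 (edgeR adjusted p = 0.0561 to 0.123). Noc4l lost this call without P14 control replicate 3 (edgeR adjusted p = 0.0915). Rrp1b lost this call without P14 control replicate 3 or 4 or 8wk control replicate 1 or 2 or 3 (edgeR adjusted p = 0.0518 to 0.153). Tsr1 lost this call without P14 control replicate 3 or 4 or 8wk control replicate 2 or 3 (edgeR adjusted p = 0.0672 to 0.156). With 1 library left out, the count of genes lower was 1 without P14 control replicate 3, 3 without P14 control replicate 4, 3 without 8wk control replicate 2 and 2 without 8wk control replicate 3. Without 8wk control replicate 1, 7 genes were called higher, led by Nop10 (0.52, adjusted p = 0.00569), Npm1 (0.47, adjusted p = 0.00384) and Polr1e (0.45, adjusted p = 0.00458).

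In 8wk against E16 controls 9 of 40 were called lower and 2 higher, where 10.8% of all genes were lower and 12.5% higher. The largest falls were those of Rrp9, -0.86 ± 0.21 (edgeR adjusted p = 0.00414), Bysl, -0.70 ± 0.15 (adjusted p = 0.00117), and Pes1, -0.65 ± 0.20 (adjusted p = 0.0189). Bysl had 54, 67.5, 55.3 and 72.6 CPM in 8wk controls and 109, 103, 95.8 and 97 CPM in E16 controls, which did not overlap. Nop10 and Polr1e were the genes called higher, at 0.44 ± 0.14 (adjusted p = 0.0262) and 0.35 ± 0.12 (adjusted p = 0.0384). Nop10 had 290, 431, 530 and 415 CPM in 8wk controls and 284, 278, 325 and 344 CPM in E16 controls, and Polr1e had 61.8, 82.8, 107 and 92.2 CPM in 8wk controls and 61.6, 68.5, 68.9 and 70 CPM in E16 controls. For both genes replicate 1 was the lowest 8wk control and lay within the E16 range. Grwd1, the fall nearest to 0 of those called, changed by -0.39 ± 0.13 (adjusted p = 0.0264), with 110, 136, 123 and 162 CPM in 8wk controls and 183, 190, 164 and 161 CPM in E16 controls that overlapped by 1 library. Rrp12, Bop1, Noc4l, Ppan and Polr1b were the others called lower, and Polr1b, Rrp9, Rrp12 and Bysl were called under every alternative run. Pes1 lost this call without E16 control replicate 2 or 8wk control replicate 2 or 3 or 4 (edgeR adjusted p = 0.0531 to 0.0711). Bop1 lost this call without E16 control replicate 2 or 8wk control replicate 1 (edgeR adjusted p = 0.0511 to 0.0521). Grwd1 lost this call without E16 control replicate 1 or 2 or 8wk control replicate 1 or 3 (edgeR adjusted p = 0.0644 to 0.0844). Ppan lost this call without E16 control replicate 1 or 2 or 3 or 8wk control replicate 1 or 2 or 3 (edgeR adjusted p = 0.0801 to 0.133). All 8wk controls lay below all E16 controls for 7 of the 40 genes (13.1% of all genes) and above them for 0 (12.6%). The count of genes higher was 6 without 8wk control replicate 1 and 0 without E16 control replicate 1 or 2 or 8wk control replicate 2 or 3, and it was 1 without E16 control replicate 3 or 4 or 8wk control replicate 4. The count of genes lower was 5 without E16 control replicate 2 and 6 without 8wk control replicate 1. The 3 age comparisons share control libraries with each other and with the ME comparisons.

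Markers of mature blood cells also differed between control ages. In P14 against E16 controls, 7 of 8 neutrophil, 9 of 10 monocyte and macrophage, 6 of 9 erythroid and 5 of 7 megakaryocyte markers were called lower and none higher, with medians of -6.23, -3.59, -4.08 and -2.79 log2. Summed neutrophil markers were at 6.97 to 45.2 CPM in P14 controls and 1082 to 5656 CPM in E16 controls, and monocyte and macrophage markers at 64.1 to 127 CPM in P14 controls and 501 to 1396 CPM in E16 controls. The erythroid sum was 159 to 254 CPM in P14 controls and 863 to 1439 CPM in E16 controls, and the megakaryocyte sum 54 to 115 CPM in P14 controls and 190 to 503 CPM in E16 controls. In 8wk against E16 controls 2 neutrophil, 5 monocyte and macrophage, 7 erythroid and 5 megakaryocyte markers were called lower and none higher. The sums in 8wk controls were 18 to 839, 175 to 894, 81.5 to 186 and 204 to 456 CPM. In 8wk against P14 controls 1 neutrophil, 1 monocyte and macrophage and 1 megakaryocyte marker were called higher and 1 erythroid marker lower. Of the monocyte and macrophage markers, C1qa and C1qb were at 0 in all P14 controls. The part of these cell types' markers in the age changes of the 40 genes was not tested.

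Other genes of ribosome production were called lower in large part. Of 45 other genes of the small subunit processome, 36 were called lower in ME at E16, 26 at P14 and 30 at 8wk, with none higher, and medians of -0.44, -0.41 and -0.40 log2. Nat10, an acetyltransferase of small subunit RNA, changed by -0.72 ± 0.11, -0.80 ± 0.11 and -0.59 ± 0.11, and Ddx52, a helicase, had log2 fold changes of -0.25 ± 0.09, -0.27 ± 0.09 and, not called, -0.19 ± 0.09. With library size as the scale, 23, 21 and 28 of the 45 were called lower. Of 50 other genes of large subunit assembly, 36, 35 and 33 were called lower and 1 higher at each age, with medians of -0.46, -0.43 and -0.44. With library size as the scale, 22, 28 and 29 were called lower. Ftsj3, a methyltransferase, changed by -0.77 ± 0.12, -0.82 ± 0.12 and -0.61 ± 0.12. The gene called higher was Nol9, a polynucleotide kinase of large subunit RNA, which averaged 133 ± 21.0 CPM in E16 ME and 31 ± 12.1 CPM in E16 control libraries and changed by 2.10 ± 0.30, 2.19 ± 0.31 and 2.12 ± 0.30.

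Of 16 further factors of RNA polymerase I, 6 were called lower at E16, 5 at P14 and 8 at 8wk, with none higher. On the library size scale 3, 4 and 8 were called lower. Cd3eap, a subunit of the enzyme, changed by -0.73 ± 0.20, -0.74 ± 0.20 and -1.13 ± 0.20, and Taf1b, of its promoter selectivity factor, had log2 fold changes of 0.01 ± 0.12, 0.18 ± 0.12 and -0.60 ± 0.12, of which the 8wk change was called. Of 11 RNA polymerase III subunits, 5, 7 and 5 were called lower and 1 higher. Its alternative subunits went opposite ways, Polr3g by -0.63 ± 0.10, -0.59 ± 0.10 and -0.72 ± 0.10 and Polr3gl by 0.53 ± 0.17, 0.53 ± 0.17 and 0.52 ± 0.17, each called at the 3 ages. Of 11 subunits of the RNA exosome tested, 7, 7 and 6 were called lower and none higher, with Exosc8 at -0.50 ± 0.13, -0.56 ± 0.13 and -0.71 ± 0.13 and Exosc4 at -0.23 ± 0.15, -0.12 ± 0.15 and -0.51 ± 0.16, of which the 8wk change was called.

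Genes of the finished ribosome gave counts that varied with age. Of 79 cytosolic ribosomal protein genes, 34 were called lower in ME at E16, 9 at P14 and 50 at 8wk, with medians of -0.32, -0.18 and -0.41 log2. With library size as the scale 21, 5 and 45 were called lower. At P14 the count was 14 with the GC correction and 18 without the 3 libraries that stand apart. No ribosomal protein gene was called by edgeR in a difference of ME effects between ages. The controls themselves differed by age. Their median log2 fold change over the 79 genes was 0.41 for 8wk against P14 and 0.34 for 8wk against E16, against 0.05 over all genes tested in each. For P14 against E16 controls it was -0.07, against 0.01. Rpl5 changed by -0.63 ± 0.15, -0.53 ± 0.15 and -0.81 ± 0.15. Of 11 snoRNA host genes tested, 0, 2 and 4 were called lower and none higher, and 2 at 8wk with library size or RLE size factors. At 8wk Snhg17 changed by -1.79 ± 0.30 and Snhg1 by -0.53 ± 0.19. Of 2 genes read from rows that carry ribosomal RNA, none was called at any age.

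**Figure D5:**
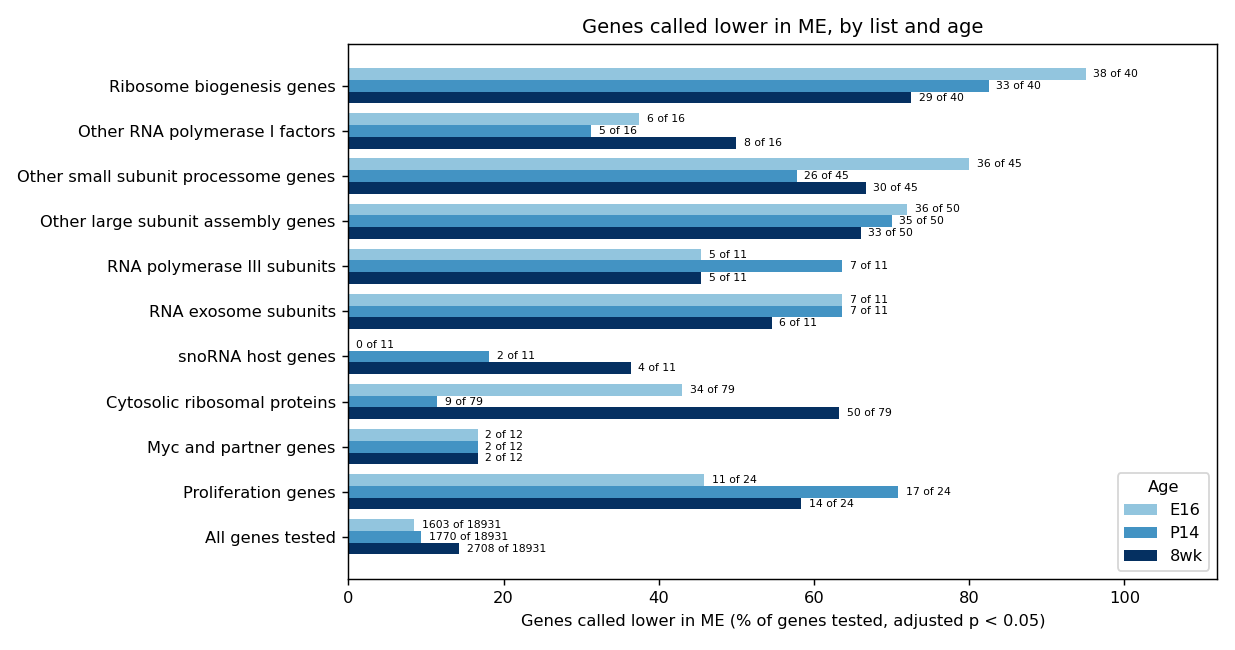
Bars give the percentage of tested genes called lower in ME at E16, P14 and 8wk for the 40 ribosome biogenesis genes, 9 other lists and all 18931 genes tested, with the counts written at the bars. The 40 genes and both lists of other assembly factors stand between 57.8% and 95%, against 8.47%, 9.35% and 14.3% of all genes.

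Myc, the factor that drives ribosome production in many cells, was lower in ME. Myc averaged 278 ± 24.0 CPM in E16 ME and 488 ± 43.7 CPM in E16 control libraries, 338 ± 44.0 CPM in P14 ME and 496 ± 70 CPM in P14 control libraries, and 225 ± 35.5 CPM in 8wk ME and 362 ± 60.9 CPM in 8wk control libraries. Its log2 fold changes were -0.81 ± 0.13, -0.55 ± 0.13 and -0.68 ± 0.13 (edgeR adjusted p = 0.000137, 0.00397 and 0.000628). Of 12 genes of Myc and its partners, 2 were called lower at each age, Myc and Mycn, while 2, 3 and 3 were called higher. The counts lower were 2, 1 and 2 with library size as the scale. Mycn changed by -0.56 ± 0.15, -0.45 ± 0.15 and -1.18 ± 0.15. Mxi1, which competes with Myc for Max, changed by 1.92 ± 0.25, 1.89 ± 0.25 and 2.06 ± 0.25. Of 24 proliferation genes, 11, 17 and 14 were called lower and none higher, with medians of -0.31, -0.44 and -0.32. Library size as the scale gave 7, 16 and 12 lower. The log2 fold changes of Mki67 were -0.80 ± 0.39, -0.85 ± 0.38 and -1.14 ± 0.38, called at 8wk, and those of Mcm2 were -0.29 ± 0.12, -0.40 ± 0.12 and -0.10 ± 0.12, called at P14. The part of Myc or of division rate in the fall of the ribosome biogenesis genes was not tested.

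Exon lengths of the 40 genes ran from 1109 to 11955 bases and GC contents from 40.1% to 59.4%. Spearman's rho of the log2 fold change with length was -0.09, -0.22 and -0.12 at E16, P14 and 8wk, and with GC -0.24, -0.06 and 0.27, across 40 genes that are not independent. The 10 shortest had median changes of -0.59, -0.49 and -0.55, and the 10 longest -0.71, -0.84 and -0.65. Single libraries were less even within their groups. Here rho was taken between length and a gene's deviation from the mean of the library's own group. It ran from -0.57 in replicate 1 of 8wk ME to 0.54 in replicate 3 of P14 ME. Leaving aside Rrs1 and Noc2l, the median coefficient of variation within a group was 11.8% in E16 ME and 6.96% in E16 control libraries, 10.1% in P14 ME and 13.1% in P14 control libraries, and 12.2% in 8wk ME and 17.1% in 8wk control libraries.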

How the data were processed

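Gene counts of 24 LSK RNA-seq libraries were used as the authors deposited them, whole-number counts per Ensembl gene that had not been normalized, in one table. Groups and replicate numbers came from sample titles. Per the submitters' processing notes, STAR 2.7.9a, build GRCm38 and featureCounts 2.0.3 of Subread were used. The labels' protocols name an RNeasy Plus kit for RNA and a Clontech kit, spelled SMRTr there, for libraries. The annotation release, strand setting and treatment of multi-mapping reads are not given in the sources used here. The table had 55774 lines for 55487 identifiers, and 168 of them were repeated with the same counts, of which 1 line each was used.

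Counts were tested with edgeR 4.0.16 (R 4.3.3): TMM factors, filterByExpr with a minimum count of 10, and a robust quasi-likelihood fit of 6 group means over 24 libraries. In 9 comparisons, ME was set against control at each age, with the differences of these effects between ages and of controls between ages. The procedure was tested on simulated data with a known ME effect at E16. Where the simulated shift was 1.5-fold, edgeR called 12 out of 101 genes. Where it was 2-fold, the call was made for 49 out of 99. Among 18731 genes without a simulated shift, 4 were called. Many shifts of these sizes were thus missed in the simulated data. Only 101 and 99 genes were shifted there, while 4125 genes were called for ME against control at E16 in the data. Of the 40 ribosome biogenesis genes, 38 were called lower at E16, with a median log2 fold change of -0.60 over the 40. The simulated shares therefore do not give the share of changes missed among these genes. A gene not called here may still have changed. CPM with TMM scaling were computed for description. Alternatives were RLE factors (the size factors of DESeq2), library size only, no filter, at least 1 CPM in 4 libraries, a replicate block, a Y-linked covariate, a GC offset (loess span 0.5), limma-voom (limma 3.58.1), DESeq2 1.42.0, a fit of only the groups compared, and each library left out. Added after seeing the data were a fit without 3 libraries that stand apart and a block within P14. At P14, deviations of same-numbered ME and control libraries from their group means correlated at 0.137 to 0.232. The labels do not tie these libraries together, so the correlations do not show that they were paired.

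The members, gene lists and tests were chosen with earlier results of these data known. Values in every library are given for the genes with the lowest and highest mean effect of each role, those not called in some ME effect, and those called between control ages (where more than 6 were called, the 3 lowest and the 3 highest). From each other list the called genes with the lowest and highest mean effect are named. A gene that this rule would name among the ribosomal proteins is not reported here. Promoter windows came from RefSeq (GRCm38.p6), and exon overlaps from GENCODE M21.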

Additional observations from a re-analysis of the deposited data

Results flagged for a closer look

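Of 240 tests of a gene in a group of 4 libraries, 10 had a library farther from the others than Dixon's limit for 4 values allows, where chance flags about 1 in 20. In E16 ME, replicate 4 was low for Rrp9, at 53.5 CPM where the others had 75.2 to 76.5 CPM, and replicate 3 was high for Nolc1, at 91.2 CPM (others 52.1 to 58.5 CPM), and for Nop14, at 36.2 CPM (others 27.5 to 27.7 CPM). In P14 ME, replicate 1 was low for Polr1e, at 46.4 CPM (others 49.5 to 49.7 CPM), and for Wdr12, at 171 CPM (others 179 to 180 CPM), and high for Fbl, at 386 CPM (others 300 to 313 CPM). P14 ME replicate 3 was high for Wdr43, at 245 CPM, where the others had 214 CPM each. Among controls, Grwd1 was high in P14 replicate 3, at 209 CPM (others 149 to 153 CPM), Gar1 low in 8wk replicate 3, at 78.7 CPM (others 108 to 110 CPM), and Pes1 high in 8wk replicate 1, at 133 CPM (others 76.1 to 85.4 CPM).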

How the results depend on the processing

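Of the genes called lower in ME, 27 of 38 at E16, 28 of 33 at P14 and 24 of 29 at 8wk were called in every alternative run. Where a result moved, the cause was not tested. For ME against control, 2 members were higher at E16 and at P14 with the replicate block, limma-voom and DESeq2, and 2 at P14 with the block within P14. Fitting only the 8wk groups gave 2907 calls over all genes, of which 67.9% were higher, against 49.8% of 5392 calls. Reversed without a call were Rrp12 at 8wk (0.03 without the 3 libraries that stand apart), Rrp9 at 8wk (-0.37 to 0.03 with 1 library left out, 0.03 being without ME replicate 4) and Pes1 at 8wk (-0.01 with limma-voom, -0.11 to 0.24 with 1 library left out, being -0.03 and -0.11 without ME replicates 1 and 4 and -0.06 and -0.07 without control replicates 2 and 4). 

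For differences of ME effects, calls over all genes were 1 with the Y-linked covariate, 29 with DESeq2 and 10 without the 3 libraries for P14 minus E16. For 8wk minus E16 they were 107 with no filter, 250 with the 1 CPM filter, 357 with the replicate block, 59 with the Y-linked covariate, 603 with DESeq2 and 1362 without the 3 libraries, which also gave 1 member lower. For 8wk minus P14 they were 298 with DESeq2 and 1009 without the 3 libraries, with 3 members lower and 2 higher.

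Between P14 and E16 controls, 2 members were lower with only those groups fitted, and 2 were higher with library size, the GC offset, DESeq2, only those groups or without the 3 libraries, and 1 with the 1 CPM filter, the replicate block or limma-voom. Between 8wk and P14 controls, 10 were lower with library size and 2 with only those groups, 8 were higher without the 3 libraries, and calls over all genes were 1483 with no filter, 1092 with only those groups and 3605 without the 3 libraries. The share of these calls that were higher was 43.2% with library size, against 55.7%. Between 8wk and E16 controls, 5 were lower with the GC offset, and 1 was higher with RLE, no filter, the Y-linked covariate or limma-voom, 0 with only those groups and 7 without the 3 libraries.

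With 1 library left out, 31 to 37 members were lower at E16, 31 to 35 at P14 and 25 to 29 at 8wk, with 1 to 2, 1 to 2 and 1 higher. Calls over all genes ran from 3024 to 3719, 2875 to 4409 and 3433 to 6571. For P14 minus E16 there were 0 members and 1 to 5 genes. For 8wk minus E16 there were 0 to 1 members lower, 0 higher and 48 to 896 genes (48 without 8wk control replicate 2, 896 without 8wk control replicate 1, 739 without 8wk ME replicate 4). For 8wk minus P14 there were 0 to 1 lower, 0 to 1 higher and 4 to 369 genes (4 without P14 ME replicate 4, 369 without 8wk control replicate 1, 224 without 8wk ME replicate 4). Between controls, P14 against E16 gave 0 to 1 lower, 0 to 2 higher (2 without P14 control replicate 1) and 2091 to 2593 genes. Values for 8wk against P14 were 1 to 9 lower, 0 to 7 higher and 929 to 3115 genes, and for 8wk against E16 5 to 10 lower, 0 to 6 higher and 3333 to 4916 genes. Over all genes tested, deviations of same-numbered ME and control libraries correlated at -0.0434 to 0.000655 at E16 and -0.0882 to 0.118 at 8wk. Of 24 libraries, 9 correlated best with a library of their own number in another group. These values are over all genes, while replicate 1 was the highest control of Rrs1 and Noc2l at each age. The labels do not tie same-numbered libraries together, and a link to the replicate number was not tested by gene. The block within P14 called 33 members lower and 2 higher: Nop58 was gained, Npm3 lost and Noc2l called higher, and no other member's call changed.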
